A study of Mus musculus with 6 samples.

Results

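The genes described are 46 genes of the autophagy machinery and its regulators, chosen by name, with earlier results of these data known. A gene was measured where a probe set was paired with its symbol and with no other. This held for 40 of the 46 genes, with 48 probe sets, and the table as a whole held 16797 such genes. Atg4c, Atg7, Atg9a, Optn, Rptor and Tfeb had no such probe set and were not analysed here. RNA came from NIH3T3 mouse fibroblasts, an immortalized line that the study calls Normal cells, in 2 groups of 3 arrays that the labels call biological replicates. Both groups were plated in 25 mM glucose, received medium with 1 mM glucose after 16 h and were harvested after 72 h of growth in it. Cells of group N received no FSK (the study's workflow gives DMSO, the vehicle, to its controls), whereas cells of group NF were given FSK at 10 μM, first at 24 h and then at 48 h. FSK (forskolin) stimulates adenylate cyclase, and the resulting cAMP activates protein kinase A (PKA). The question addressed was whether mRNA levels of autophagy genes differed between glucose-limited cells with and without FSK. Values are log2 expression levels of the authors, and every change is the NF mean minus the N mean on the log2 scale.

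Autophagy encloses cytoplasm in a double membrane, the autophagosome, which fuses with the lysosome so that its content is degraded and its building blocks are returned to the cell. The ULK kinase complex starts the process under the control of AMPK, which responds to low energy, and of mTORC1, which responds to nutrients and restrains it. A class III PI3-kinase complex then marks the growing membrane with a phospholipid, and 2 ubiquitin-like conjugation systems attach the ATG8 proteins (LC3 and GABARAP) to that membrane. Receptors such as p62 carry selected cargo to the ATG8 proteins, and transcription factors of the MiT/TFE family can raise expression of autophagy and lysosome genes. Much of this control acts on proteins, by phosphorylation and lipid attachment, which the arrays did not measure.

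The 6 arrays had similar medians, between 3.84 and 3.93, but the SD over probe sets was 2.42 on N replicate 1 and between 2.58 and 2.62 on the other arrays. All 7 fibroblast markers (among them Col1a1, Vim and Pdgfrb) exceeded 3.70, the median over probe sets of the mean level, on every array. None of the 12 measured epithelial, endothelial, leukocyte and adipocyte markers did so on every array, but some epithelial ones exceeded it on some arrays. Cdh1 reached 4.25 in N and 3.74 in NF, Krt8 4.16 in N and 4.12 in NF, and Krt18 3.73 in N. The mean fibroblast marker level lay between 9.70 and 10.34 in N and between 10.26 and 10.44 in NF.

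None of the 40 measured autophagy genes passed the test in either direction (limma, adjusted p under 0.05), against 428 of 16797 genes, or 2.55%. Of those, 307 genes (1.83%) were higher and 121 (0.72%) lower in NF, a split of 495 against 365 after further quantile normalization. Among the 8268 genes with a mean level at or above 3.70, where 39 of the 40 autophagy genes lay, 5.02% were called. At an unadjusted p under 0.05 limma took in 8 autophagy genes, 5 of them higher (Ulk1, Pik3r4, Uvrag, Atg4a and Bnip3) and 3 lower in NF (Atg3, Atg10 and Sqstm1). The background at that threshold was 13.8% of all genes and 24.5% of those at or above 3.70. By the methods' t-test, 7 autophagy genes had an unadjusted p under 0.05 (11.1% of all genes) and 0 an adjusted one (1 of all genes, 0.00595%). The lowest adjusted p of any autophagy gene was 0.0756, for Uvrag. In RNA of whole cultures, fewer cells of a kind and less RNA per cell cannot be told apart.

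The changes of the autophagy genes ran from -0.54 (Atg10) to 0.91 (Uvrag), with a median of 0.15, where the median over all genes was -0.03 and over those at or above 3.70 was 0.09. The median size of the change was 0.31, against 0.16 over all genes and 0.25 over those at or above 3.70. No autophagy gene reached a 2-fold difference of means, which 2.74% of all genes did. For 32 of the 40 genes the 95% interval of the change lay within a 2-fold difference in either direction, which held for 87.5% of all genes and 76.2% of those at or above 3.70. The NF mean was the higher one for 23 genes and the lower one for 17, against 45.2% higher over all genes and 59.8% higher among those at or above 3.70. The N and NF arrays did not overlap for 11 autophagy genes, 8 higher and 3 lower in NF, against 20.2% of all genes and 28.6% of those at or above 3.70. As a measure of what the test could call, the smallest change of any called gene was 0.61 in size and the median 1.21, and 84 called genes had changes no larger than that of Uvrag.

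**Figure D1:**
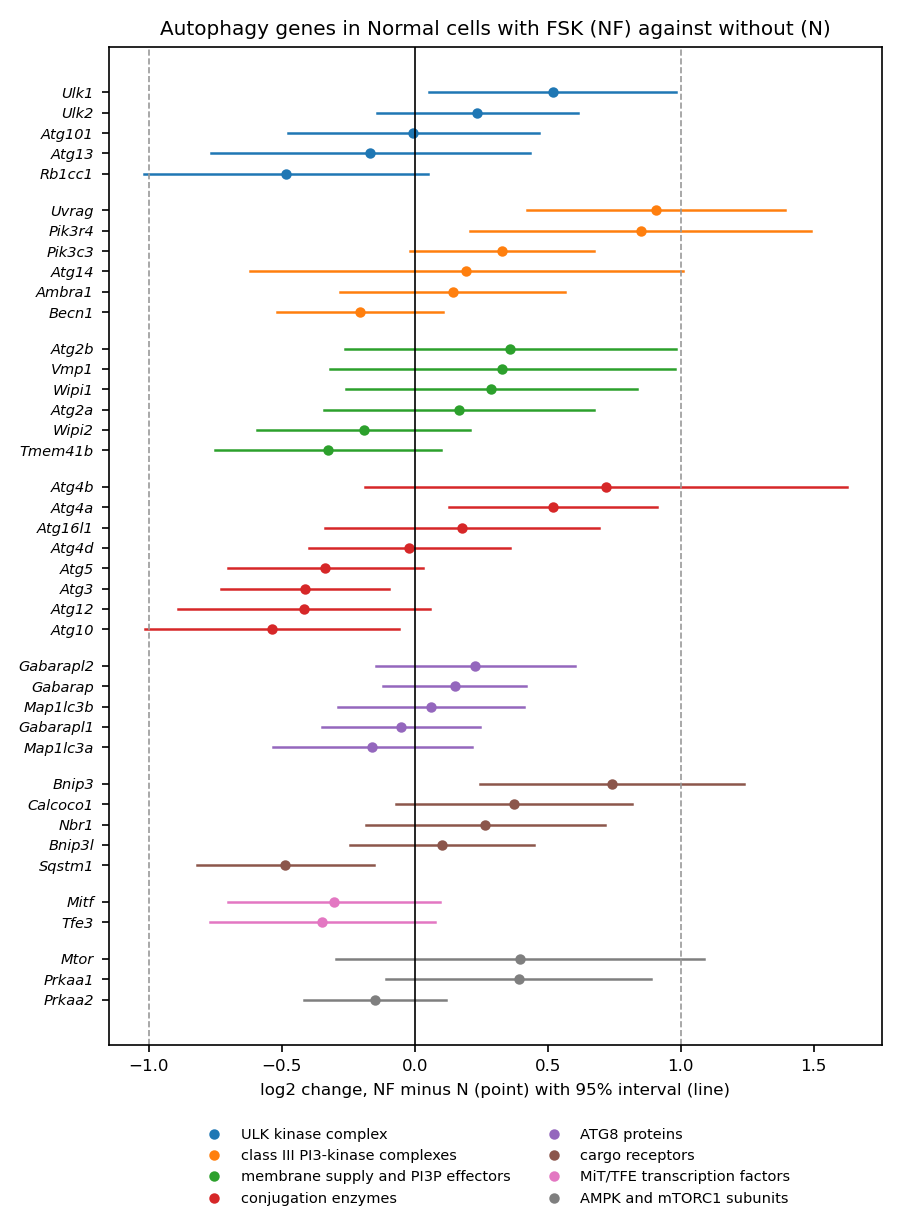
Change in log2 expression (NF mean minus N mean, horizontal axis) of the 40 measured autophagy genes, grouped by role, with bars for limma's 95% interval from 3 arrays per group and dashed lines at a 2-fold difference. The estimates run from -0.54 for Atg10 to 0.91 for Uvrag, and none passed the adjusted test.

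The ULK complex, which starts autophagosome formation, was represented by 5 genes, 2 with a higher and 3 with a lower mean in NF. Ulk1, its catalytic kinase, stood at 5.06, 5.73 and 5.79 in N and at 6.10, 6.05 and 5.99 in NF. All NF arrays were above all N arrays, and N replicate 1 was the lowest. The change was 0.52 (SE 0.20, 95% interval 0.05 to 0.98, limma adjusted p = 0.308), and it was 0.29 without N replicate 1. Rb1cc1 encodes FIP200, the large scaffold of the complex, and measured 6.51, 6.22 and 5.87 in N and 5.94, 5.28 and 5.93 in NF. The groups overlapped, with 1 low NF array (replicate 2), and the change was -0.49 (SE 0.23, 95% interval -1.02 to 0.05, limma adjusted p = 0.426). Without that array it was -0.27. The related kinase Ulk2 differed by 0.24, and the regulatory subunits Atg13 and Atg101 by -0.17 and -0.01.

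The class III PI3-kinase complexes held the largest estimate in the set, with 5 of 6 means higher in NF. Without N replicate 1, 3 means were higher and 3 lower. Uvrag, a Beclin 1 partner of the complex that acts in autophagosome and endosome maturation, measured 6.27, 6.76 and 6.92 in N and 7.74, 7.24 and 7.70 in NF. Every NF array was above every N array, and N replicate 1 was again the lowest. The group means were 6.65 ± 0.34 and 7.56 ± 0.28 (SD, n = 3 each), a change of 0.91 or 1.87-fold (SE 0.21, 95% interval 0.42 to 1.39, limma adjusted p = 0.0756). Without N replicate 1 the change was smaller, 0.72, but the adjusted p was 0.0477. That setting called 5.49% of all genes. After quantile normalization of the 6 arrays, which called 5.12% of all genes, it was 0.79 with an adjusted p of 0.0221. Over 15 alternatives its change lay between 0.72 and 1.07, and its adjusted p between 0.0114 and 0.383.

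Pik3r4 encodes VPS15, the regulatory subunit on which the lipid kinase VPS34 depends, and stood at 4.66, 5.74 and 5.64 in N and at 6.12, 6.06 and 6.40 in NF. The groups did not overlap, and N replicate 1 lay about 1 log2 unit under the other N arrays. The change of 0.85 (SE 0.28, 95% interval 0.21 to 1.49, limma adjusted p = 0.211) was 0.51 without that array (adjusted p = 0.0842). Pik3c3, which encodes VPS34 itself, measured 5.96, 5.66 and 5.93 in N and 6.30, 5.97 and 6.26 in NF, without overlap but with less than 0.02 between the nearest arrays, for a change of 0.33 (limma adjusted p = 0.405).

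Becn1 encodes Beclin 1, the subunit whose protein the study followed in Transformed cells, not analysed here, and was the one gene of the complex with a lower mean in NF. It stood at 7.48, 7.76 and 7.81 in N and at 7.53, 7.42 and 7.48 in NF. N replicate 1 lay among the NF arrays while the other N arrays were above them. The change was -0.21 (SE 0.14, limma adjusted p = 0.591) with a 95% interval from -0.52 to 0.10. Without N replicate 1 it was -0.31 (limma adjusted p = 0.218). Atg14, the subunit that directs the complex to autophagosome formation, spread from 4.62 to 6.20 in N and from 5.67 to 5.80 in NF, and its change of 0.19 was -0.26 without N replicate 1. The scaffold Ambra1 differed by 0.14.

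Promoters of the genes with the lowest p (Uvrag, Bnip3 and Sqstm1), and stretches around a motif in Atg3 and Atg5, are given as RefSeq sequence on GRCm38.p6, 5′ to 3′ on the gene's strand. Other genes with a full motif are named without their sequence. They are shown because PKA acts on transcription through CREB, which binds the cAMP response element (CRE, TGACGTCA), and because MiT/TFE factors bind the E-box (CACGTG) and its extended CLEAR-type form (TCACGTGA). Capitals mark a motif found by search. The promoter of Uvrag (chr7:99141095-99141394, minus strand) reaches from 250 bases before the start site to 50 after it. It held neither a CACGTG nor a TGACGTCA.
Uvrag: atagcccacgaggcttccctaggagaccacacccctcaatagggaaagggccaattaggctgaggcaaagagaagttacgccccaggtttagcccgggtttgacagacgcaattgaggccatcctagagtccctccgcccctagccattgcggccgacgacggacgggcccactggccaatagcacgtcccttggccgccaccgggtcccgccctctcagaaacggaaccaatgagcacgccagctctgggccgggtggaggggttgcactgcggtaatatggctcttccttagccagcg

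Factors that supply and shape the membrane gave 6 measured genes, 4 with a higher and 2 with a lower mean in NF, and in every one the groups overlapped. Tmem41b, an endoplasmic reticulum lipid scramblase, measured 6.26, 6.21 and 6.50 in N and 5.75, 5.87 and 6.36 in NF. NF replicate 3 lay within the N range and the other NF arrays below it, for a change of -0.33 (SE 0.18, limma adjusted p = 0.524). Its other probe set gave -0.14 (limma adjusted p = 0.768). Atg2b, a lipid transfer protein, had values of 5.27, 6.19 and 6.37 in N and of 6.19, 6.42 and 6.30 in NF. Its change of 0.36 (limma adjusted p = 0.651) rested on N replicate 1 and was 0.02 without it. The other Atg2b probe set also gave 0.36 (limma adjusted p = 0.792), and -0.17 without N replicate 1. Changes that rested on that array were also those of Vmp1, another scramblase, at 0.33 and 0.04 without it, and of the phosphoinositide-binding Wipi1, at 0.29 and 0.03. Wipi2 differed by -0.19 and Atg2a by 0.17.

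Among the 8 genes of the conjugation systems and the ATG4 proteases, 3 means were higher and 5 lower in NF. Atg3, the E2-like enzyme that passes ATG8 proteins to the membrane lipid, stood at 7.93, 7.98 and 8.28 in N and at 7.69, 7.59 and 7.66 in NF. All NF arrays were below all N arrays, and the 3 NF values lay within about 0.1 of each other. The change was -0.41 (SE 0.14, 95% interval -0.73 to -0.10, limma adjusted p = 0.221), and after quantile normalization it was -0.48 with an adjusted p of 0.0482, where the adjusted p over 15 alternatives ran up to 0.541. Atg10, the E2-like enzyme of the ATG12 system, measured 6.93, 6.68 and 6.78 in N and 5.96, 6.10 and 6.72 in NF. NF replicate 3 overlapped the N arrays and the others were lower, for a change of -0.54 (SE 0.21, 95% interval -1.01 to -0.06, limma adjusted p = 0.302). Atg12, a ubiquitin-like protein, differed by -0.42 (limma adjusted p = 0.449), and Atg5, to which it is joined, by -0.34 (limma adjusted p = 0.421). Atg16l1, which brings that conjugate to the membrane, differed by 0.18.

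The ATG4 proteases cut ATG8 proteins before conjugation and release them afterwards. Atg4a stood at 5.53, 5.69 and 5.79 in N and at 6.47, 5.91 and 6.20 in NF. The groups did not overlap, and the change was 0.52 (SE 0.17, 95% interval 0.13 to 0.91, limma adjusted p = 0.208). Its other probe set gave 0.70 (adjusted p = 0.254). Atg4b measured 3.96, 5.49 and 5.55 in N and 5.56, 5.67 and 5.92 in NF, again without overlap, but the N arrays were spread over more than 1.5 log2 units by the low value of replicate 1. Its change of 0.72 (SE 0.39, limma adjusted p = 0.509) was 0.20 without that array. Atg4d differed by -0.02.

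Of the genes with a promoter entry, Atg3 alone held the CLEAR-type motif, and Atg5 and Mitf held the CRE. A stretch around the motif is shown for Atg3 at chr16:45158727-45158794 (plus strand), where the motif begins at position -72 from the start site, and for Atg5 at chr10:44268308-44268375 (plus strand), where the motif spans the start site.
Atg3: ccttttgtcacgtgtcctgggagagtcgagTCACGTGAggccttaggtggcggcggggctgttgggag
Atg5: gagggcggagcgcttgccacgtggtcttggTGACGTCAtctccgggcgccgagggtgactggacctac
Each stretch also holds an E-box in lower case, outside the marked motif.

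The ATG8 proteins coat the autophagosome membrane and bind cargo receptors, and the changes of their 5 genes lay between -0.16 and 0.23. Map1lc3b encodes LC3B, the protein by which autophagosomes are commonly followed, and stood at 10.18, 10.43 and 10.26 in N and at 10.44, 10.11 and 10.51 in NF. The highest and the lowest value both belonged to NF, and the groups overlapped. The change was 0.06 (SE 0.15, 95% interval -0.29 to 0.41, limma adjusted p = 0.909), so that a difference above 0.41 lay outside the interval. Its other probe set gave 0.02. Gabarap measured 11.78, 11.85 and 11.81 in N and 12.02, 11.89 and 11.98 in NF, which did not overlap, for a change of 0.15 (95% interval -0.12 to 0.42, limma adjusted p = 0.666). Gabarapl2 had values of 9.57, 9.27 and 9.27 in N and of 9.62, 9.35 and 9.81 in NF, with overlap, and differed by 0.23 (limma adjusted p = 0.628), or by 0.12 without NF replicate 3. Its other probe set was dim, with means of 2.66 in N and 2.79 in NF, and differed by 0.13 (limma adjusted p = 0.858). Gabarapl1 and Map1lc3a differed by -0.05 and -0.16.

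**Figure D2:**
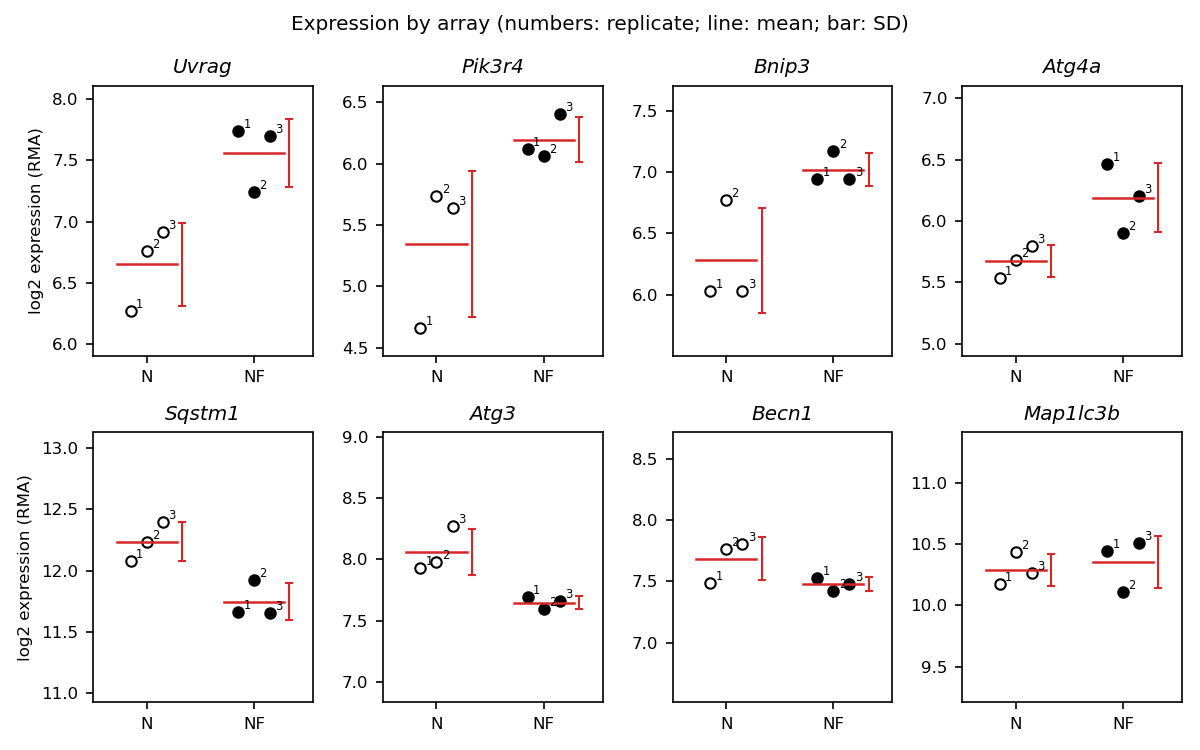
Log2 expression of 8 autophagy genes on each array (N open, NF filled, numbers for the replicate), with a line at the group mean and a bar for its SD (n = 3). For Uvrag, Pik3r4 and Bnip3 the NF arrays lie above the N arrays, for Sqstm1 and Atg3 below them, and for Map1lc3b they are mixed.

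The 5 cargo receptors held genes of both directions, with 4 means higher and 1 lower in NF, or 3 and 2 without N replicate 1. Sqstm1 encodes p62, a receptor for ubiquitinated cargo that is itself degraded by autophagy, and stood at 12.08, 12.23 and 12.40 in N and at 11.67, 11.93 and 11.66 in NF. All NF arrays were below all N arrays. The change was -0.49 (SE 0.14, 95% interval -0.82 to -0.15, limma adjusted p = 0.162), and without N replicate 1 it was -0.57 (adjusted p = 0.0513). Bnip3, a mitochondrial receptor of mitophagy, measured 6.03, 6.78 and 6.03 in N and 6.94, 7.17 and 6.94 in NF. All NF arrays were above all N arrays, and N replicate 2 was the one N array near them. The change was 0.74 (SE 0.22, 95% interval 0.24 to 1.24, limma adjusted p = 0.155), and without N replicate 2 it was 0.99 with an adjusted p of 0.0309, a setting that called 2.08% of all genes. Its adjusted p over 15 alternatives ran up to 0.458. The other Bnip3 probe set, at 7.74, 7.94 and 7.76 in N and 7.99, 8.53 and 8.10 in NF, also did not overlap and gave a smaller change of 0.39 (limma adjusted p = 0.371). Its relative Bnip3l differed by 0.10, Nbr1, a ubiquitin-binding receptor, by 0.26 and Calcoco1 by 0.37 (limma adjusted p = 0.474).

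The promoters of Bnip3 and Sqstm1 are shown in the same window as that of Uvrag. Bnip3 (chr7:138909457-138909756, minus strand) held an E-box that begins at position -108 from the start site, and Sqstm1 (chr11:50210771-50211070, minus strand) held none of the motifs.
Bnip3: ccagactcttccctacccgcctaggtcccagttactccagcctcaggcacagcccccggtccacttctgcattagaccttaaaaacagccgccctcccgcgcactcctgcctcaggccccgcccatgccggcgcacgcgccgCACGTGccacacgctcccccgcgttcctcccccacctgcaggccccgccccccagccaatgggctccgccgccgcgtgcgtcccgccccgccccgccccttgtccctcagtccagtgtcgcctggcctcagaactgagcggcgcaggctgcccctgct
Sqstm1: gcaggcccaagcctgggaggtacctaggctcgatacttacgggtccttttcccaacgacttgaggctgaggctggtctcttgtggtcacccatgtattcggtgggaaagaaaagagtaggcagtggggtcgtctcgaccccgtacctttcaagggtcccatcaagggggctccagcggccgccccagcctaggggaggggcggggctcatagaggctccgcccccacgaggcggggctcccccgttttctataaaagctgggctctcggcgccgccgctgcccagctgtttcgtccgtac

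The MiT/TFE factors Tfe3 and Mitf, which activate lysosome and autophagy genes when they enter the nucleus, both had lower means in NF. Tfe3 stood at 7.04, 7.45 and 7.53 in N and at 6.84, 7.27 and 6.87 in NF. The groups overlapped through NF replicate 2, and the change was -0.35 (SE 0.18, limma adjusted p = 0.489) and -0.50 without N replicate 1. Mitf measured 4.76, 5.07 and 5.24 in N and 4.60, 4.96 and 4.61 in NF, overlapped through the same NF array, and differed by -0.30 (limma adjusted p = 0.528). Its other probe set was dim, with means of 2.40 in N and 2.33 in NF, and differed by -0.07 (limma adjusted p = 0.901).

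Of the energy and nutrient sensors, 2 catalytic genes had higher means that rested on N replicate 1. Prkaa1 encodes a catalytic subunit of AMPK and stood at 7.54, 8.14 and 8.38 in N and at 8.48, 8.27 and 8.48 in NF. The groups overlapped, and the change of 0.39 (limma adjusted p = 0.516) was 0.15 without N replicate 1. Mtor, the kinase of mTORC1, measured 5.48, 6.45 and 6.77 in N and 6.72, 6.52 and 6.64 in NF, where N replicates 2 and 3 lay on either side of the NF arrays. Its change of 0.40 (limma adjusted p = 0.653) was 0.02 without N replicate 1. Prkaa2, the other catalytic AMPK gene, was dim, at 2.87 ± 0.05 in N and 2.72 ± 0.05 in NF (SD, n = 3 each), below the median level of 3.70 on every array.

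N replicate 1 moved with the direction of the set as a whole. On it the 40 autophagy genes lay on average 0.33 below their mean over all arrays, while on the other 5 arrays that average lay between -0.01 and 0.17. The 3428 genes with a mean level between the quartiles of the autophagy genes (5.81 to 7.88) lay 0.40 below their mean on N replicate 1, so that the array was low for genes of this level in general. It was the lowest array for 23 of the 40 autophagy genes and for 33.3% of all genes. Without it the median change of the autophagy genes was -0.05 instead of 0.15, with 18 means higher and 22 lower in NF, a move shared with other genes of such levels: among the 8268 genes at or above 3.70 the median went from 0.09 to -0.04 and the share with a higher mean from 59.8% to 44.7%, while over all genes that share was 45.1%. The part of array quality in these differences was not tested. Pik3c3, Pik3r4, Uvrag, Atg4a and Bnip3 among the higher genes and Atg3, Atg10, Sqstm1, Tfe3, Mitf and Atg13 among the lower ones had changes of 0.38 to 0.72 in size without the array.

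**Figure D3:**
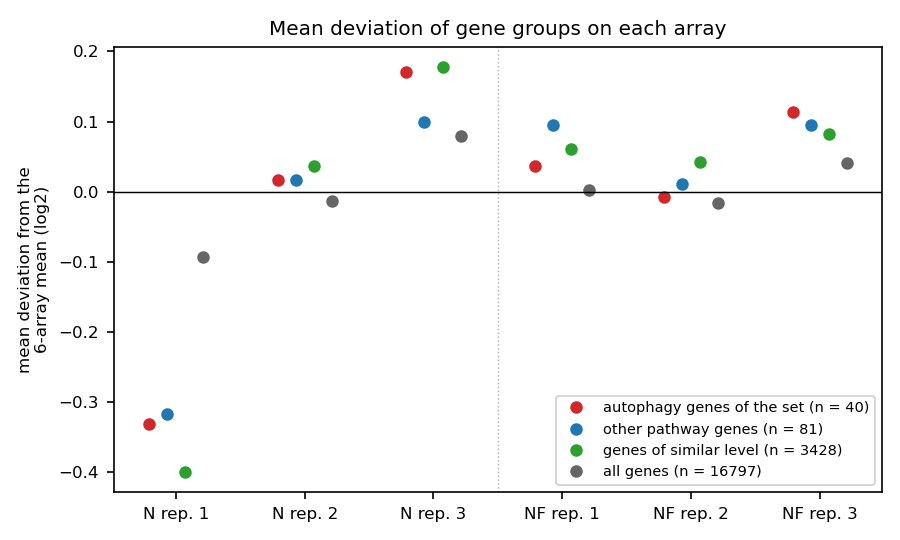
Log2 expression on each array relative to the gene's 6-array mean, averaged over the 40 autophagy genes, 81 further pathway genes, 3428 genes of similar level and all 16797 genes. The autophagy genes and those of similar level lie lowest on N replicate 1, at -0.33 and -0.40, and between -0.01 and 0.18 on the other arrays.

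**Figure D4:**
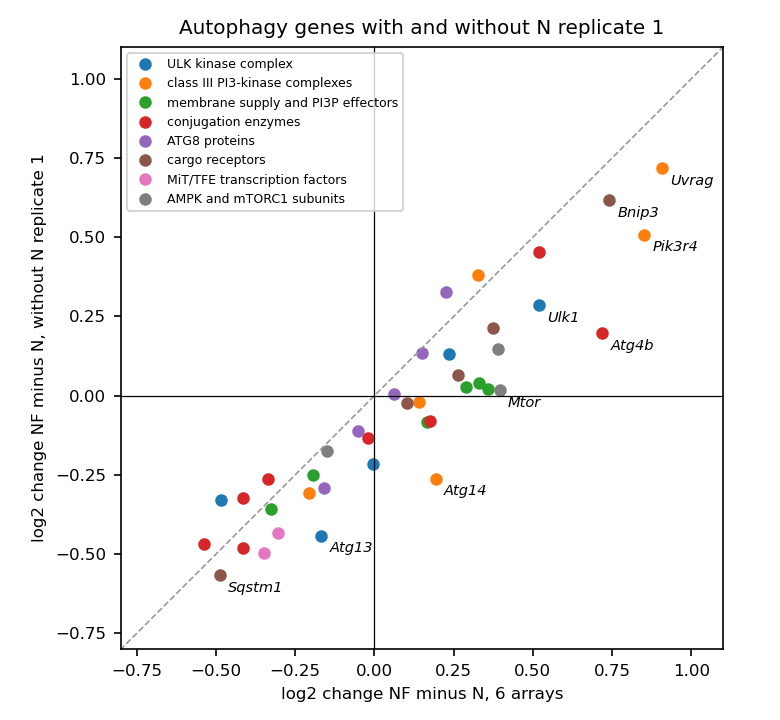
Change in log2 expression (NF minus N) of each measured autophagy gene with all 6 arrays (horizontal) and without N replicate 1 (vertical), coloured by role, with a dashed line where both are equal. The median moves from 0.15 to -0.05, with Uvrag at 0.72 and Sqstm1 at -0.57 without the array.

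Of 92 further genes of the pathway, in 5 lists, 81 were measured, and 2 rose, 1 fell and 78 did not pass the test. Over all genes 2.55% passed, and 5.02% of those at or above 3.70, where 73 of the 81 lay. Snx18, a sorting nexin that aids membrane supply to autophagosomes, stood at 6.26, 6.18 and 6.02 in N and at 7.12, 6.83 and 7.27 in NF. The groups lay well apart, and it rose by 0.92 (SE 0.15, limma adjusted p = 0.0275), about as much as the estimate for Uvrag with less spread among arrays. Depdc5, a subunit of the GATOR1 complex that restrains mTORC1, measured 5.26, 5.32 and 5.37 in N and 5.98, 5.89 and 6.03 in NF, and rose by 0.65 (SE 0.12, limma adjusted p = 0.0360). Stbd1, a receptor that links glycogen to autophagosomes, measured 4.54, 3.90 and 5.14 in N and 2.78, 2.78 and 2.69 in NF. It fell by 1.78 (SE 0.28, limma adjusted p = 0.0231). All its NF arrays were below 3.70, the median level over probe sets, where signals are dim. Whether such dim signals limit the measured size of the fall was not tested. The 3 calls were lost without some single arrays, and calls over all genes fell in the same settings. Those fell from 428 to 349 without N replicate 2 and to 139 without N replicate 3. They numbered 1 without NF replicate 1, 241 without NF replicate 2 and 2 without NF replicate 3. Over the alternatives the change lay between 0.81 and 1.09 for Snx18, 0.51 and 0.69 for Depdc5, and -2.09 and -1.47 for Stbd1. Snx18 and Depdc5 kept an adjusted p under 0.05 without N replicate 1 but not without N replicate 2 (0.0640 and 0.0808), N replicate 3 (0.0792 and 0.0799), NF replicate 1 (0.165 and 0.212) or NF replicate 3 (0.167 and 0.199), and Depdc5 not without NF replicate 2 (0.0824). Stbd1 lost the call without NF replicate 1 (0.131), NF replicate 2 (0.0641) or NF replicate 3 (0.159). Snx18 and Depdc5 also missed the threshold after quantile normalization (0.0740 and 0.0893). The direction was the same under every alternative in which each was tested, but Stbd1 was not tested where dim probe sets were left out, since its own was among them.

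The other lists held no called gene. The lowest p among fusion factors belonged to the SNARE Ykt6, at 0.43 (limma adjusted p = 0.192). The v-ATPase acidifies the lysosome, and of its 15 measured subunits 14 had higher means in NF (59.8% of genes at or above 3.70), with a median change of 0.30 that was 0.21 without N replicate 1. Groups did not overlap for 9 of them, 8 higher and Atp6v1g1 lower, against 28.6% of genes at or above 3.70. Atp6v1e1 had the lowest p, at 0.85 (limma adjusted p = 0.122), and it was called after quantile normalization, at 0.80 (adjusted p = 0.0444). In the remaining lists the NF mean was higher for 11 of 17 core factors and 9 of 12 fusion factors. It was higher for 7 of 13 receptors and for 14 of 24 AMPK and mTORC1 partners. Without N replicate 1 these counts were 9, 6, 7 and 10, in that order. The share with a higher mean was 45.2% of all genes and 59.8% of those at or above 3.70. Without that array the shares were 45.1% and 44.7%.

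**Figure D5:**
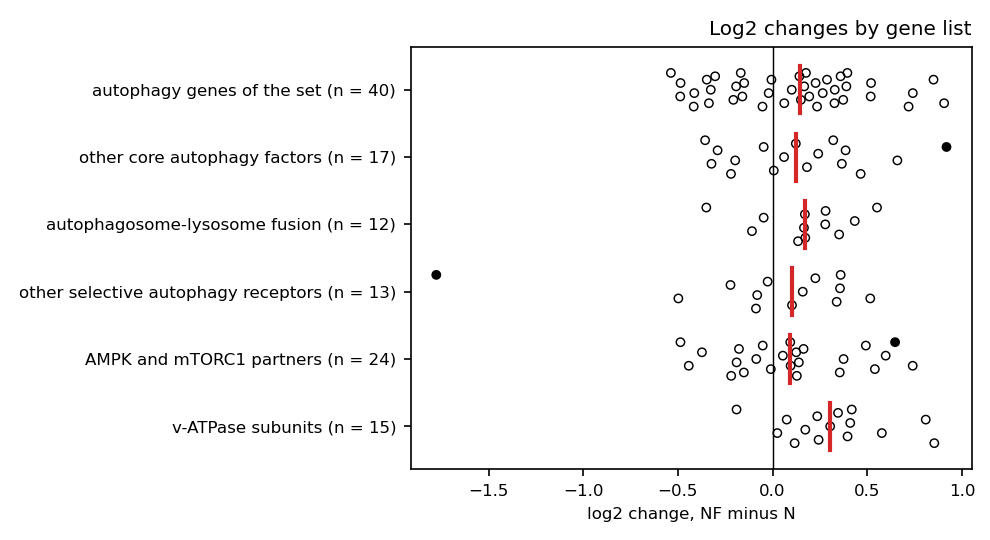
Change in log2 expression (NF minus N) of the 40 autophagy genes and of 81 further pathway genes in 5 lists, 1 point per gene, filled where limma's adjusted p was under 0.05, with a red line at the median. Filled points are Snx18, Depdc5 and Stbd1, and the v-ATPase list has the highest median, 0.30.

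In the promoters, 39 of the 46 autophagy genes matched a RefSeq entry, measured or not. The E-box, searched on both strands, was in a promoter of 5 of them (Atg14, Atg3, Atg5, Atg7 and Bnip3), or 12.8%, against 8.09% of all genes. The CLEAR-type motif, which contains the E-box, was in 1 (2.56% against 1.12%), and the CRE in 2, Atg5 and 1 of the 3 starts of Mitf (5.13% against 2.03%). The short core TGACG, which every full CRE contains, was in 16 (41.0% against 23.0%), and the amino acid response motif TTGCATCA in 0 of 39, against 1.03% of all genes. Genes with an E-box had estimates in both directions, such as 0.74 for Bnip3 and -0.41 for Atg3. A match describes the letters of the window and is not a measured site.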

How the data were processed

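Total RNA of 6 cultures was labelled with biotin and hybridized to Affymetrix gene arrays. The deposited values are log2 expression levels that the authors computed with RMA, in the package oligo of R/Bioconductor (version not given in the sources used here), and the authors removed probe sets without an Entrez gene. Which arrays were normalized together is not stated. Of 22035 probe sets, 18197 had exactly 1 gene symbol in the platform annotation and were tested, 1260 had several and 2578 were not listed. All 18187 symbols that matched a RefSeq table by Entrez ID were kept.

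NF was compared with N by limma 3.58.1 in R 4.3.3 (lmFit and eBayes), with Benjamini-Hochberg adjustment over the 18197 probe sets, a threshold of 0.05 and the probe set with the lowest p for each gene. Intervals use 8.0 degrees of freedom. The number of arrays limits the precision. Group membership came from the labels. The autophagy genes, the further lists and the tests were chosen with earlier results of these data known. Named were called genes, the 2 lowest p per role, Becn1, Map1lc3b and genes called under an alternative, and of each further list the called genes and the lowest p. Other genes that are given by value were chosen after values were seen. The alternatives were a replicate block, quantile normalization, median centring, removal of dim probe sets, the brightest probe set per gene, limma's trend and robust options, the methods' t-test, every probe set and leaving out arrays. The procedure was tested on simulated data. Samples of Transformed cells were not analysed here. Promoters were taken from RefSeq, GRCm38.p6.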

Additional observations from a re-analysis of the deposited data

How the results depend on the processing

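The count of autophagy genes called, 0 higher and 0 lower, was the same with median centring, without dim probe sets and with the brightest probe set. It was also the same with trend and robust options and with every probe set. The adjusted t-test gave that count too, but it called only 1 of all 16797 genes, so it could hardly call an autophagy gene. Quantile normalization called 1 higher (Uvrag) and 1 lower (Atg3). The unadjusted t-test called 4 higher and 3 lower (1000 and 861 over all genes). Removal of both N replicate 1 and NF replicate 2 called 1 higher (Uvrag) and 2 lower (Sqstm1 at -0.66 and Tfe3 at -0.64). Over all genes that removal called 541 and 497. For Uvrag, Sqstm1 and Tfe3 NF replicate 2 was the NF array nearest to N, so leaving it out widened their differences. Leaving out 1 array at a time gave 0 to 1 higher (Uvrag without N replicate 1, Bnip3 without N replicate 2) and 0 to 0 lower. Of the further pathway genes, 2 higher and 1 lower became 1 (Atp6v1e1, with Snx18 and Depdc5 lost) and 4 after quantile normalization, 2 and 0 without dim probe sets, 1 and 1 with trend and robust options, 0 and 0 with the adjusted and 10 and 3 with the unadjusted t-test, 1 and 1 with every probe set, 4 and 2 without both arrays, and 0 to 2 and 0 to 3 without 1 array. Map1lc3b ran from -0.015 to 0.18 when 1 array was left out, and it reversed without NF replicate 3. The Atg2b probe set with the lower p reversed to -0.035 without both arrays. The replicate numbers did not pair the arrays (correlations of -0.07 to -0.08), and with the replicate block 0 higher and 0 lower of either set were called, and 80 instead of 428 of all genes. Over all genes the count was 1 without NF replicate 1, 2 without NF replicate 3, 139 without N replicate 3 and 922 without N replicate 1. The cause of these shifts was not tested.

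With 3 arrays a group, the median SE of an autophagy gene was 0.19. With all 6 arrays as deposited, no gene with a change under about 0.6 was called, although smaller ones were called under alternatives (Atg3 at -0.48 after quantile normalization), so an autophagy gene that missed the threshold is not shown to be the same in N and NF.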
